A study of Mus musculus with 45 samples.

Results

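Mouse embryonic stem cell (mESC) cultures that had received retinoic acid (RA) and BMP4 together were compared, on day 9 of differentiation, with cultures that had received RA alone. The libraries were chosen by their labels alone: the 3 of the combined treatment (M9) and the 3 of RA alone (R9), which are 6 of the 45 bulk RNA-seq libraries of the series. All cultures were grown attached, and were taken to neuromesodermal progenitors, bipotent cells of the tail end of the embryo, with basic FGF and CHIR, an activator of WNT signalling. R9 cultures then received 100 nM RA for 48 h. M9 cultures received 100 nM RA with 10 ng/ml BMP4 for 48 h, from day 3 to day 5. In a further group of 3 libraries (B9) the first 24 h were with RA only and 10 ng/ml BMP4 was added to the RA for the next 24 h. It is used below only to show where M9 differed from it, as are the day 7 groups M7 and R7. For RA, the labels give an end day that is not the same in all their texts. Per the series' text the 45 libraries came from 3 independent differentiations, but the labels do not tie a replicate number to a differentiation, so p-values measure only the spread between these samples, which may be technical. No name of the mESC line is given in the labels.

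BMPs are secreted ligands of the TGF-beta family that bind paired receptor kinases and act through SMAD transcription factors. In the embryo, BMP from the roof plate and the overlying ectoderm patterns the dorsal spinal cord, while BMP acting on the early mesoderm favours lateral plate mesoderm, the source of the heart, body wall mesenchyme and the mesothelium that lines the body cavities. RA acts through nuclear receptors and favours the spinal cord fate of neuromesodermal progenitors. The comparison addresses what giving BMP4 at the same time as RA had changed by the last day of the course. RNA was taken from whole cultures, so fewer cells of a type and less RNA per cell cannot be told apart.

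Values are the authors' deposited normalized levels of 11220 genes, a signal per gene and library with no unit in its header. Differences are between means of log2(level + 1), which understates the change of low genes, and a gene was called at a Benjamini-Hochberg adjusted p under 0.05 in limma fitted over all 45 libraries. Of the 11220 genes, 5726 were called (51.0%): 3084 were higher in M9 (27.5%) and 2642 lower (23.5%). The table lists only genes that passed the authors' threshold in some deposited comparison, so these shares are higher than they would be over all genes. In 3764 genes (33.5%) all 3 M9 libraries lay above the 3 R9 libraries, and in 3329 (29.7%) all lay below. Calls with at least a 2-fold difference numbered 1206 higher (10.7%) and 1361 lower (12.1%). The median log2 difference over all genes was 0.04. The listed levels summed to between 12297697 and 12975029 in R9 and between 13959544 and 15228259 in M9, and the depth of each library is unknown. R9 replicate 3 stood apart from the other R9 libraries, with correlations across genes of 0.981 and 0.984 against 0.992 between replicates 1 and 2. The M9 libraries correlated at 0.989 to 0.990. In the lists below, R9 replicate 3 is often the lowest R9 library for neural and mesodermal genes and the highest for pluripotency genes.

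The M9 cultures carried far more RNA of lateral mesoderm and heart transcription factors and of mesothelium, and far less of spinal cord progenitors, dorsal interneurons and neurons. Changes were ranked among called genes with no overlap of the groups and a mean level of at least 100 in the higher group. The largest rise was that of Hand2, a basic helix-loop-helix factor needed in heart and limb. Its level was 23.8, 25.95 and 9.27 in the R9 libraries and 865, 2079.8 and 1482 in the M9 libraries, a log2 difference of 6.19 (SE 0.80, adjusted p = 1.8e-07). R9 replicate 3 was the lowest library. The gene (ENSMUSG00000038193) lies at chromosome 8, 57320983 to 57324633, on mm10.

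Gata5, a zinc-finger factor of heart and gut mesoderm, was at 8.35, 14.6 and 3.58 in R9 and 434, 814 and 571 in M9, a log2 difference of 6.07 (SE 0.87, adjusted p = 1.1e-06). Bnc1, which encodes the zinc-finger protein basonuclin found in mesothelium and keratinocytes, was at 16.7, 15.97 and 9.84 in R9 and 386, 1198 and 1024 in M9, a log2 difference of 5.72 (SE 0.59, adjusted p = 4.0e-09). The other 9 of the 12 largest rises had log2 differences from 4.60 to 5.76. They were Hlx, a homeobox gene of visceral mesoderm, Krt15, a keratin of basal epithelial cells, Upk3b, a uroplakin of mesothelium, Rgs5, a G-protein regulator of pericytes, Tbx20, a T-box factor of the heart, Iigp1, an interferon-inducible GTPase, Frem1, a matrix protein of basement membranes, Lrrn4, a membrane protein of mesothelium, and Gucy1a3, a subunit of soluble guanylate cyclase. Of these Lrrn4 had the smallest adjusted p: its level was 73.5, 89.5 and 63.4 in R9 and 1269.9, 2663 and 2042 in M9, a log2 difference of 4.65 (SE 0.31, adjusted p = 3.9e-13).

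The largest fall was that of Cp, the copper-carrying ferroxidase ceruloplasmin, from 1135, 785 and 252 in R9 to 5.14, 7.92 and 13.3 in M9. Its log2 difference was -6.04 (SE 0.82, adjusted p = 4.4e-07), and -6.68 without R9 replicate 3, the lowest R9 library. Gsx1, a homeobox gene of dorsal spinal progenitors, was at 230.3, 157 and 131 in R9 and at 4.33, 1.204 and 8.97 in M9, a log2 difference of -5.11 (SE 0.75, adjusted p = 1.5e-06). Dbx1, a homeobox gene of intermediate progenitors, was at 301, 369 and 203 in R9 and 1.46, 12.7 and 23.5 in M9, a log2 difference of -4.91 (SE 0.95, adjusted p = 8.1e-05). M9 replicate 1 held almost none of it, and the difference was -3.95 without that library and -5.61 without M9 replicate 3.

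Sox21 and Wnt7b, a SOX factor of neural progenitors and a WNT ligand of the neural tube, fell as evenly across libraries. Sox21 was at 899.8, 799 and 1133 in R9 and 80.5, 47.2 and 58.7 in M9, and Wnt7b at 950.1, 822 and 857 in R9 and 43.6, 56.1 and 80.4 in M9. The log2 differences were -3.92 (SE 0.58, adjusted p = 1.8e-06) for Sox21 and -3.89 (SE 0.51, adjusted p = 2.5e-07) for Wnt7b. The other 7 of the 12 largest falls were Fos, described below, Acsbg1, an acyl-CoA synthetase, Cnpy1, Skor1, a transcriptional corepressor of dorsal horn neurons, Kirrel2, an adhesion protein, Hopx, a small homeodomain protein, and Mt3, a metallothionein of the nervous system. Their log2 differences ran from -4.77 for Fos to -3.90 for Mt3, and that of Acsbg1 was -4.30 with all libraries and -3.52 without M9 replicate 2. The plot of these 24 genes, which were chosen to have no overlap of the groups, shows the level in each library.

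**Figure D1:**
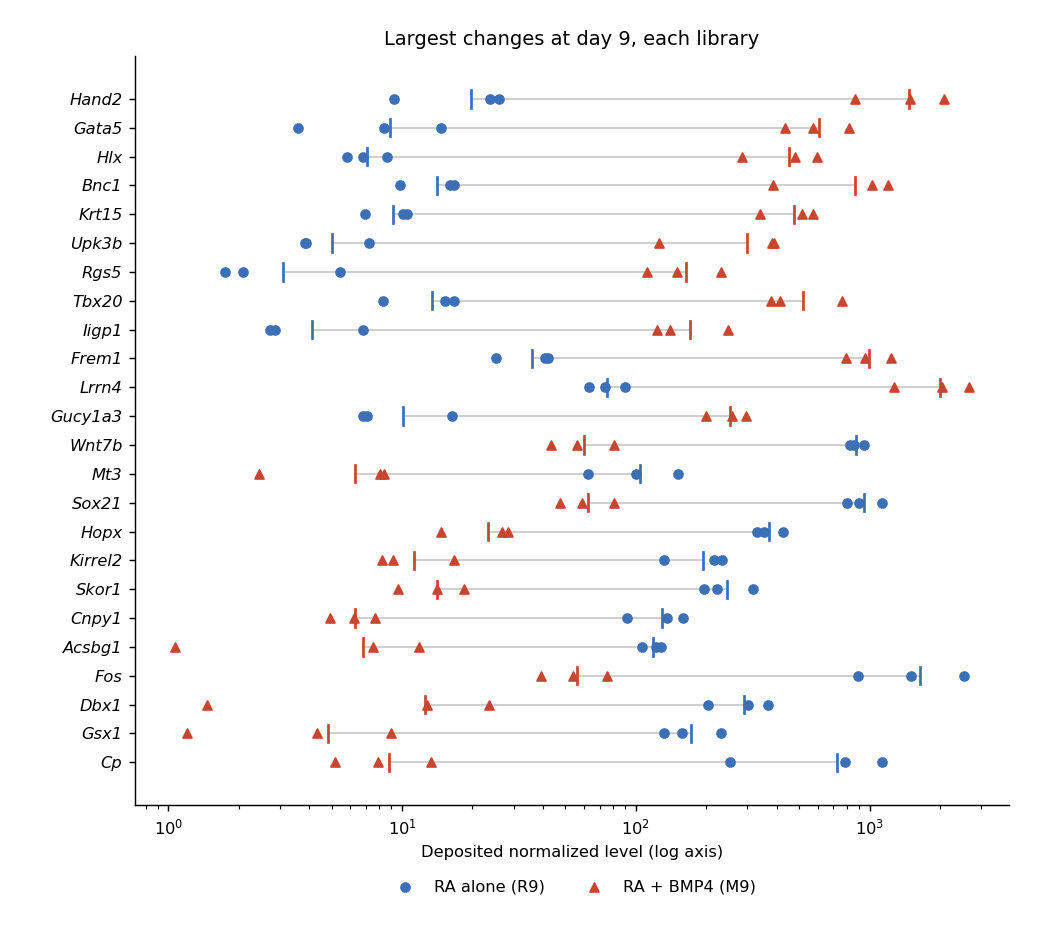
Deposited normalized level (log axis) of the 12 genes with the largest rise and the 12 with the largest fall in M9 over R9, with a point for each of the 3 libraries of a group and a vertical tick at each group mean. The 24 genes were chosen among those whose groups do not overlap, and the log2 differences reach 6.19 for Hand2 and -6.04 for Cp.

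The promoters of Hand2 and Bnc1 are shown because these genes lead the mesodermal and mesothelial rises. Each run holds the 250 bases before the start of transcription, 5′ to 3′ on the gene's strand, from RefSeq on GRCm38.p6 (mm10). Capitals mark GGCGCC, a GC-rich element known to bind BMP-regulated SMADs, and AGATAA or its reverse complement, the core element of GATA factors.

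Hand2, chr8:57320733-57320982, plus strand: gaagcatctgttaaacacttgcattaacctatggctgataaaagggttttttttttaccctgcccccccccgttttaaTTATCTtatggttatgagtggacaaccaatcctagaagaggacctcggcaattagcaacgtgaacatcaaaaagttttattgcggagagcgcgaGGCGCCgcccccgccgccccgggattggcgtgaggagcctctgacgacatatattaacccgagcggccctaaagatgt
Bnc1, chr7:81992300-81992549, minus strand: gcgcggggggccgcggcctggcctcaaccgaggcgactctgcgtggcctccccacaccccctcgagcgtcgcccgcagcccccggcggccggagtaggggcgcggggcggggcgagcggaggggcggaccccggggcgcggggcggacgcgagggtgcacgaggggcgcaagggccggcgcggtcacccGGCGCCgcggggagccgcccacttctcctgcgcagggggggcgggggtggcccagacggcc

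GGCGCC stood at position 173 of the Hand2 run and 190 of the Bnc1 run, counted from its 5′ end, and the reverse complement of AGATAA at position 79 of the Hand2 run. Searched on both strands in windows of the same length, GGCGCC was in 9.59% of 32851 mouse promoters and AGATAA in 9.99%. The promoters matched for 9 of the 12 largest rises numbered 10, of which 2 held GGCGCC and 2 held AGATAA. Of the 16 promoters matched for 11 of the 12 largest falls, 3 held GGCGCC and 0 held AGATAA. The 13 promoters matched for 11 of the 20 lateral mesoderm genes described next held GGCGCC in 2 and AGATAA in 1. These matches describe the letters in the window only.

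Transcription factors of lateral mesoderm and heart rose together. Of 20 on the list, all in the table, 17 rose and 0 fell, against 27.5% and 23.5% of all genes, and the median log2 difference was 2.79 against 0.04 over all genes. Besides Hand2, Gata5 and Tbx20, Foxf1, a forkhead factor of splanchnic mesoderm, was at 28.7, 50.5 and 25.9 in R9 and 401, 818 and 601 in M9, a log2 difference of 4.08 (SE 0.52, adjusted p = 1.6e-07). Gata6, a GATA factor of heart and endoderm, was at 226, 235 and 150.3 in R9 and 1871, 3721 and 2939.6 in M9, a log2 difference of 3.77 (SE 0.61, adjusted p = 6.5e-06). Gata4, its partner in heart development, was at 438, 477 and 348 in R9 and 1339, 2574 and 2046 in M9, a log2 difference of 2.20 (SE 0.58, adjusted p = 0.0023). In all 3 genes the groups were apart, and M9 replicate 2 was the highest. Hand1, a relative of Hand2 in extraembryonic and heart mesoderm, was at 31.3, 26.2 and 27.2 in R9 and 500.2, 473 and 326 in M9, a log2 difference of 3.87 (SE 0.91, adjusted p = 7.1e-04).

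The 3 genes of this list that were not called were Tbx3, Nkx2-5 and Prrx1, named after their values were seen. Nkx2-5, a homeobox factor that marks heart muscle progenitors, was at 50.6, 72.8 and 50.4 in R9 and 44.5, 52.5 and 46.01 in M9, so that the groups overlapped. Its log2 difference was -0.26 (SE 0.26, adjusted p = 0.42). Prrx1 had a log2 difference of 1.66 (SE 0.72, adjusted p = 0.053), and its adjusted p was 0.044 without R9 replicate 1 and 0.049 without M9 replicate 1. Tbx3 had one of 1.37 (SE 0.69, adjusted p = 0.098).

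Contractile genes of heart muscle moved the other way. Of 16 listed, 9 fell and 1 rose, with a median log2 difference of -0.97. Myh7, the slow cardiac myosin heavy chain, was at 200.01, 158 and 132 in R9 and 9.37, 10.5 and 27.9 in M9, a log2 difference of -3.42 (SE 0.47, adjusted p = 6.3e-07). Actn2, the sarcomeric alpha-actinin, was at 269, 311 and 381 in R9 and 64.8, 21.9 and 71.6 in M9, a log2 difference of -2.73 (SE 0.36, adjusted p = 3.1e-07). Neither gene's groups overlapped. Myh6, the fast cardiac heavy chain, and Ttn, the giant sarcomere protein titin, fell by 2.89 and 2.80 on the log2 scale (adjusted p = 1.7e-05 and 3.2e-04). The markers set for heart muscle cells did not all follow: Tnnt2, cardiac troponin T, was at 35.4, 28.1 and 20.2 in R9 and 8.82, 20.2 and 26.7 in M9, with a log2 difference of -0.65 (SE 0.72, adjusted p = 0.46). Myl7, the atrial myosin light chain, was at 9.85, 6.899 and 8.38 in R9 and 18.5, 18.1 and 27.3 in M9, with the groups apart and a log2 difference of 1.24 (SE 0.56, adjusted p = 0.062). The 1 gene that rose, Nppa, encodes an atrial hormone. It was at 2.25, 1.61 and 0.384 in R9 and 4.84, 7.22 and 5.39 in M9, near the bottom of the scale. Its log2 difference was 1.57 (SE 0.60, adjusted p = 0.029), with an adjusted p of 0.14 without R9 replicate 3, 0.092 without M9 replicate 2 and 0.052 without M9 replicate 3. Skeletal muscle actin, Acta1, fell as well, from 168, 204 and 150.5 in R9 to 9.86, 21.002 and 38.8 in M9, with a log2 difference of -3.04 (SE 0.49, adjusted p = 6.2e-06).

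Mesothelial and epicardial genes rose or did not pass the test. Of 14 listed, 8 rose and 0 fell, with a median log2 difference of 2.75. Wt1, a zinc-finger factor of mesothelium that is also made by a class of spinal interneurons, was at 136, 181 and 97.9 in R9 and 1343, 2779 and 2301 in M9, a log2 difference of 3.92 (SE 0.45, adjusted p = 2.4e-08). Upk3b was at 3.89, 7.25 and 3.86 in R9 and 125, 391 and 382 in M9, a log2 difference of 5.52 (SE 0.91, adjusted p = 9.6e-06). M9 replicate 1 was the lowest M9 library for both genes and still lay above every R9 library. Tgm2, a transglutaminase, was at 168, 145 and 137 in R9 and 1388, 2498 and 2849 in M9, a log2 difference of 3.84 (SE 0.40, adjusted p = 4.0e-09). Tcf21, a helix-loop-helix factor of epicardium and visceral fibroblasts, was at 3.74, 3.34 and 2.27 in R9 and 46.5, 66.3 and 106 in M9, a log2 difference of 4.10 (SE 0.76, adjusted p = 4.5e-05). Msln, the mesothelin of mature mesothelium, was near the bottom of the scale in both groups: 10.1, 2.79 and 4.72 in R9 and 2.64, 4.53 and 5.02 in M9, with a log2 difference of -0.33 (SE 0.73, adjusted p = 0.72). The summed level of the 4 mesothelial markers was 116 to 207 in R9 and 1857 to 4372 in M9.

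Smooth muscle genes rose or did not pass the test: 11 of 16 rose and 0 fell, with a median log2 difference of 1.52. Tpm2, a tropomyosin, was at 738, 824 and 725 in R9 and 1926, 2536 and 2002 in M9, a log2 difference of 1.49 (SE 0.13, adjusted p = 2.1e-10). Myocd, the myocardin coactivator of smooth muscle genes, was at 23.1, 28.7 and 26.4 in R9 and 99.7, 116 and 78.4 in M9, a log2 difference of 1.86 (SE 0.30, adjusted p = 7.1e-06). Srf, the serum response factor with which myocardin acts, was at 2122, 1857 and 2093 in R9 and 3031, 3231 and 2983 in M9, a log2 difference of 0.61 (SE 0.09, adjusted p = 1.2e-06). Each of these 3 genes was higher in every M9 library than in any R9 library. Myh11, the smooth muscle myosin heavy chain, was at 24.6, 14.4 and 12.2 in R9 and 92.1, 146 and 103 in M9, with a log2 difference of 2.70 (SE 0.56, adjusted p = 1.8e-04), and Cnn1, a calponin, rose by 1.80 on the log2 scale (adjusted p = 0.005). The best known markers were spread more widely between libraries. Acta2, smooth muscle actin, was at 864, 433 and 226 in R9 and 859.6, 2168 and 1633 in M9. The groups overlapped through R9 replicate 1 and M9 replicate 1, and the log2 difference was 1.72 (SE 1.02, adjusted p = 0.16). Tagln, an actin-binding protein, had a log2 difference of 1.70 (SE 0.82, adjusted p = 0.082).

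Srf is shown because its promoter holds the element it binds, the CArG box, in capitals. The run is the 250 bases before its start, 5′ to 3′ on the minus strand, from RefSeq on GRCm38.p6.

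Srf, chr17:46556163-46556412, minus strand: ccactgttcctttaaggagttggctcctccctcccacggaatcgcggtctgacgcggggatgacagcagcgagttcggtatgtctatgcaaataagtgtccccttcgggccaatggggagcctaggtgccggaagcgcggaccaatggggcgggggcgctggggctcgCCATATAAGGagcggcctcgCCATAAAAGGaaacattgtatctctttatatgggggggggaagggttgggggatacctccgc

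The boxes stood at positions 169 and 189 of the run. A CArG box was in 1.47% of the 32851 mouse promoters, in 2 of the 13 promoters matched for 12 of the 16 smooth muscle genes, and in 0 of the 10 promoters of the largest rises. As above, a match describes the letters of the window only.

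Fibroblast and mesenchymal genes rose in 8 of 18 cases and fell in 1, with a median log2 difference of 1.67. Pdgfrb and Pdgfra, receptors of platelet-derived growth factor, were among the clearest. Pdgfrb was at 649.99, 803 and 524 in R9 and 1937, 2322 and 1807 in M9, a log2 difference of 1.63 (SE 0.26, adjusted p = 7.4e-06). Pdgfra was at 816, 919 and 378 in R9 and 3144, 5112 and 3736 in M9, a log2 difference of 2.57 (SE 0.47, adjusted p = 4.5e-05). Twist2, a helix-loop-helix factor of dermal and other mesenchyme, rose by 2.24 on the log2 scale (adjusted p = 4.3e-05). The gene that fell was Vim, the intermediate filament of mesenchymal and neural progenitor cells. It was at 23906, 19356 and 13069 in R9 and 6993, 9739.5 and 9738 in M9, a log2 difference of -1.06 (SE 0.38, adjusted p = 0.021). Its adjusted p was 0.097 without R9 replicate 1, 0.054 without R9 replicate 2 and 0.084 without M9 replicate 1. When only the 6 libraries of the comparison were fitted, 13 of the 18 rose and 2 fell.

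Matrix genes followed a similar course, with 9 of 20 higher, 2 lower and a median log2 difference of 1.52. Eln, elastin, was at 33.9, 46.1 and 39.3 in R9 and 321, 302 and 424 in M9, a log2 difference of 3.09 (SE 0.32, adjusted p = 4.1e-09). Fn1, fibronectin, was at 9653, 7789 and 6759 in R9 and 23784, 29823 and 18733 in M9, a log2 difference of 1.57 (SE 0.27, adjusted p = 2.2e-05). Col6a2, a collagen VI chain, was at 266, 231 and 183 in R9 and 1017, 1425 and 1953 in M9, a log2 difference of 2.65 (SE 0.46, adjusted p = 2.0e-05). In each of the 3 the groups were apart. The main fibrillar collagens did not pass the test: Col1a1 was at 1636, 1336 and 854 in R9 and 2609, 4551 and 4295 in M9, with a log2 difference of 1.59 (SE 0.71, adjusted p = 0.06). Col3a1 was at 2675, 1721 and 454 in R9 and 2636, 8572 and 7993 in M9, overlapping through M9 replicate 1, with a log2 difference of 2.14 (SE 1.17, adjusted p = 0.13), and 1.40 without R9 replicate 3. The 2 genes that fell were Cyr61 and Ctgf, matricellular genes that respond to growth factors and YAP. They were at 3077, 1913 and 1513 and 2367, 1484 and 1568 in R9 and 535, 855 and 890.4 and 511, 766 and 735 in M9. Their log2 differences were -1.48 (SE 0.49, adjusted p = 0.012) and -1.42 (SE 0.45, adjusted p = 0.0087), and that of Cyr61 was not called without R9 replicate 1 (adjusted p = 0.070) or M9 replicate 1 (0.061). With the 6 libraries fitted alone, 14 of the 20 matrix genes rose and 3 fell.

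Basement membrane genes were divided: 2 of 14 rose (14.3%) and 4 fell (28.6%), beside 27.5% and 23.5% of all genes. Their median was 0.11. Lama1, the laminin chain of embryonic basement membranes, was at 6916, 6237 and 4926 in R9 and 1962, 1914 and 1978 in M9, a log2 difference of -1.61 (SE 0.30, adjusted p = 6.0e-05). Nid2, a nidogen that links laminin to collagen IV, was at 6264, 4863 and 5022 in R9 and 9547, 11370.1 and 11782 in M9, a log2 difference of 1.02 (SE 0.21, adjusted p = 1.4e-04). Col18a1 fell by 0.86 on the log2 scale (adjusted p = 1.6e-04), and Lama5 rose by 0.71 (adjusted p = 0.0081).

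Genes of paraxial mesoderm and skeletal muscle also split, with 5 of 18 higher (27.8%) and 8 lower (44.4%). Over all genes the shares were 27.5% and 23.5%. The forkhead factors Foxc1 and Foxc2, made in paraxial mesoderm and also in other mesenchyme, rose. Foxc2 was at 123, 222 and 84.4 in R9 and 997, 2071 and 1000.05 in M9, a log2 difference of 3.26 (SE 0.52, adjusted p = 6.4e-06), and Foxc1 rose by 2.08 (adjusted p = 2.9e-04). Pax9, a paired-box factor of the sclerotome, fell: it was at 35.4, 37.5 and 19.5 in R9 and 6.22, 3.58 and 2.83 in M9, a log2 difference of -2.61 (SE 0.44, adjusted p = 1.3e-05). Meox1, a homeobox factor of somites and named after its values were seen, was at 146, 227 and 154 in R9 and 1636, 1847 and 985 in M9, a log2 difference of 3.06 (SE 0.67, adjusted p = 3.5e-04).

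Endothelial and blood genes gave few calls, 3 higher (18.8%) and 2 lower (12.5%) of 16, beside 27.5% and 23.5% of all genes. Flt4, a VEGF receptor of lymphatic and early endothelium, was at 222, 228 and 231 in R9 and 659.98, 578 and 527 in M9, a log2 difference of 1.36 (SE 0.17, adjusted p = 8.8e-08). Tek, the angiopoietin receptor, was at 143, 128 and 134 in R9 and 50.7, 69.5 and 72.5 in M9, a log2 difference of -1.08 (SE 0.29, adjusted p = 0.0023). The defining markers Cdh5, the cadherin of vessel walls, and Pecam1 were not called, with log2 differences of 0.88 (SE 0.58, adjusted p = 0.2) and -0.79 (SE 0.52, adjusted p = 0.21). Kdr, the main VEGF receptor, had a log2 difference of 1.41 (SE 0.55, adjusted p = 0.031), which was not called without R9 replicate 3 (adjusted p = 0.15), M9 replicate 2 (0.13) or M9 replicate 3 (0.063). Leaving out R9 replicate 3, M9 replicate 1 or M9 replicate 3 left 3 of the 16 genes called. The embryonic globins Hba-x and Hbb-y were at or below a level of 2.21 in all 6 libraries.

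Epithelial genes changed in a subset only. Of 20 surface ectoderm and epithelial genes 6 rose (30%) and 1 fell (5%), beside 27.5% and 23.5% of all genes. The median was 0.32. Those that rose included basal epidermal genes: Trp63, the p63 factor of basal epithelium, was at 12.9, 18.9 and 5.84 in R9 and 91.3, 146 and 99.7 in M9, a log2 difference of 3.17 (SE 0.48, adjusted p = 2.7e-06). Krt5, a basal keratin, was at 7.36, 9.26 and 6.52 in R9 and 56.001, 61.6 and 70.9 in M9, a log2 difference of 2.88 (SE 0.41, adjusted p = 9.6e-07). Grhl3, a grainyhead factor of surface ectoderm, rose by 1.35 (adjusted p = 5.2e-04), while Tfap2c fell by 1.36 (adjusted p = 0.0018). The general epithelial genes Cdh1, which encodes E-cadherin, and Epcam overlapped between the groups. Cdh1 was at 1969, 1946 and 3211 in R9 and 2131, 1751 and 1828 in M9, with a log2 difference of -0.28 (SE 0.46, adjusted p = 0.63), and Epcam had a difference of 0.07 (SE 0.40, adjusted p = 0.89). The summed level of the 5 surface epithelium markers was 5089 to 7041 in R9 and 5072 to 5926 in M9.

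Of 18 neural crest genes 8 rose and 1 fell, with a median of 0.42. Some that rose belong to autonomic neurons: Prph, the intermediate filament peripherin, was at 49.9, 58.7 and 89.6 in R9 and 259.9, 152 and 272 in M9, a log2 difference of 1.77 (SE 0.28, adjusted p = 4.7e-06). Dbh, dopamine beta-hydroxylase, was at 0.573, 0.628 and 0.103 in R9 and 18.3, 18.4 and 22.2 in M9, a log2 difference of 3.86 (SE 0.71, adjusted p = 3.9e-05). In both genes the groups were apart, and Dbh was at low levels throughout. Ets1, which is also made in endothelium and mesenchyme, rose by 2.09 (adjusted p = 7.0e-07). Sox10, the defining factor of migrating crest, had a log2 difference of 1.98 (SE 0.80, adjusted p = 0.038). It was not called without R9 replicate 2 (adjusted p = 0.066), R9 replicate 3 (0.13), M9 replicate 1 (0.072) or M9 replicate 3 (0.11). Endoderm markers were low, with summed levels of 456 to 655 in R9 and 202 to 450 in M9. Of 11 endoderm genes 2 rose (18.2%) and 1 fell (9.09%), beside 27.5% and 23.5% of all genes. Their median was -0.39. Of the 3 markers, Sox17 fell by 1.28 on the log2 scale (adjusted p = 0.016). It was not called without R9 replicate 2 (adjusted p = 0.069) or M9 replicate 1 (0.064). Foxa2 was not called, with a log2 difference of -0.59 (adjusted p = 0.14). Afp, alpha-fetoprotein, rose: it was at 6.16, 8.24 and 4.305 in R9 and 15.8, 56.1 and 105 in M9. Its log2 difference was 2.73 (SE 0.78, adjusted p = 0.0046), 3.46 without M9 replicate 1 and 2.14 without M9 replicate 3.

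**Figure D2:**
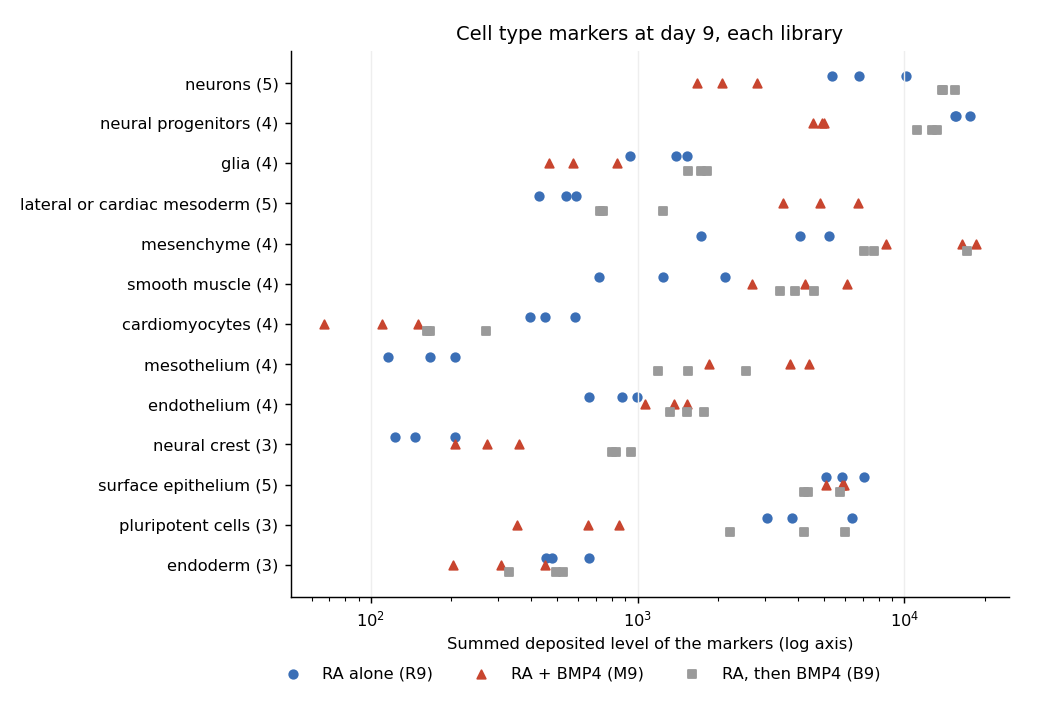
Summed deposited level (log axis) of the marker genes of 13 cell types in each library of R9 (blue circles), M9 (red triangles) and B9 (grey squares). Lateral mesoderm markers sum to 3519 to 6707 in M9 against 425 to 588 in R9, neural progenitor markers to 4561 to 4993 against 15430 to 17680, and pluripotent cell markers to 353 to 852 against 3046 to 6347.

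The plot of marker sums gives the cell types side by side. The labels of these libraries give the cell type as mESCs, and all markers set for these cell types were in the table except Lum, a mesenchymal proteoglycan. Neuron markers summed to 5347 to 10132 in R9 and 1673 to 2801 in M9, and neural progenitor markers to 15430 to 17680 and 4561 to 4993. Lateral mesoderm markers summed to 425 to 588 in R9 and 3519 to 6707 in M9, and mesenchyme markers to 1724 to 5210 and 8539 to 18574. Each of these pairs of ranges was apart. Glia markers summed to 940 to 1537 in R9 and 467 to 837 in M9. The astrocyte gene Aqp4 had a mean level under 10 in both groups, and Gfap in M9 but not in R9. Neither gene was called, with log2 differences of 0.10 for Aqp4 (adjusted p = 0.9) and -0.70 for Gfap (adjusted p = 0.28). Markers of pluripotent cells summed to 3046 to 6347 in R9 and 353 to 852 in M9. Pluripotency genes therefore differed between the groups along with the neural and mesodermal genes, and their part in those results was not tested.

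Neural progenitor genes fell as a group. Of 20 listed, 13 fell and 1 rose, with a median log2 difference of -2.21. Sox2, the SOX factor that maintains neural progenitors and pluripotent cells, was at 8748, 7788 and 10222 in R9 and 1459.8, 738 and 1261 in M9, a log2 difference of -3.00 (SE 0.30, adjusted p = 2.2e-09). The gene (ENSMUSG00000074637) lies at chromosome 3, 34650405 to 34652461, on mm10. Sox1, which is restricted to neural progenitors, was at 926, 815 and 915 in R9 and 112, 175 and 87.7 in M9, a log2 difference of -2.87 (SE 0.56, adjusted p = 9.3e-05). Zic2, a zinc-finger factor of the dorsal neural tube, was at 5986, 5090.5 and 3909 in R9 and 694, 463 and 839 in M9, a log2 difference of -2.93 (SE 0.37, adjusted p = 1.1e-07). In each the R9 and M9 libraries were well apart, and R9 replicate 3 did not deviate in the same direction in all 3. The paired-box genes followed: Pax7, of the dorsal cord, was at 479.8, 618 and 338 in R9 and 34.7, 33.3 and 73.7 in M9, with a log2 difference of -3.37 (SE 0.59, adjusted p = 2.0e-05), and Pax6 fell by 2.56 (adjusted p = 5.9e-04). The sum of pluripotent cell markers given above moved in the same direction as Sox2. Its part in these differences was not tested. Nes, the filament nestin, had overlapping groups and a log2 difference of -0.65 (SE 0.27, adjusted p = 0.046). It was not called without R9 replicate 1 (adjusted p = 0.23), R9 replicate 2 (0.13), M9 replicate 1 (0.11) or M9 replicate 3 (0.12). The 1 gene that rose, Lix1, was at 74.6, 69.99 and 37.01 in R9 and 155, 178 and 233 in M9, a log2 difference of 1.67 (SE 0.49, adjusted p = 0.0057).

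Genes of the Notch pathway and of neurogenesis fell in 7 of 19 cases and rose in 2, with a median of -1.59. Dll1, the Notch ligand made by newborn neurons, was at 3951, 4342 and 3324 in R9 and 502, 308 and 491 in M9, a log2 difference of -3.18 (SE 0.48, adjusted p = 2.7e-06). Notch1, its receptor, was at 6044, 5197 and 4248 in R9 and 1564, 1063 and 1252 in M9, lower at an adjusted p of 1.2e-06. The gap between groups exceeded the spread within them in both, although R9 replicate 3 was the lowest R9 library each time. With the 6 libraries fitted alone, 12 of the 19 fell and 2 rose.

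Dorsal interneuron genes were counted by class. The lists follow the 6 dorsal classes of the embryonic cord: dI1 to dI3 are nearest the roof plate and need BMP, dI4 to dI6 lie further ventral. Of 20 genes of dI4 to dI6 and their progenitors 13 fell and 1 rose, with a median of -2.0. Pax8, a paired-box factor of inhibitory interneurons, was at 458, 381 and 416 in R9 and 30.6, 32.3 and 31.8 in M9, a log2 difference of -3.68 (SE 0.48, adjusted p = 2.6e-07). Lbx1, the homeobox factor that sets these classes apart, was at 277, 289 and 188 in R9 and 17.5, 16.4 and 16.9 in M9, a log2 difference of -3.79 (SE 0.61, adjusted p = 7.2e-06). Both genes were nearly constant among the M9 libraries, and no M9 library came near the R9 range. Pax2, which is also made by inhibitory interneurons and was named after its values were seen, was at 1128, 1045 and 709.7 in R9 and 102, 94.1 and 98.7 in M9, a log2 difference of -3.25 (SE 0.55, adjusted p = 1.3e-05). The 1 gene that rose was Wt1, given above with mesothelium.

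Of 20 genes of the roof plate and dI1 to dI3, 6 fell (30%) and 2 rose (10%), beside 23.5% and 27.5% of all genes. The median was -1.66. Wnt3a, a WNT ligand of the roof plate, was at 1253, 1173 and 949 in R9 and 152, 83.1 and 189 in M9, a log2 difference of -3.05 (SE 0.56, adjusted p = 4.6e-05). Hmx3, a homeobox gene of dorsal interneurons, was at 172, 105 and 81.5 in R9 and 16.8, 20.1 and 31.3 in M9, a log2 difference of -2.32 (SE 0.43, adjusted p = 4.2e-05). Pou4f1, the BRN3A factor of early dorsal and sensory neurons, was at 1172, 862 and 783 in R9 and 388, 197 and 392 in M9, a log2 difference of -1.57 (SE 0.45, adjusted p = 0.0044). The groups of these 3 genes did not overlap. Barhl1, a dI1 gene, was not called: it was at 101, 45.6 and 12.6 in R9 and 11.1, 13.5 and 35.5 in M9, with a log2 difference of -1.12 (SE 1.12, adjusted p = 0.42). That difference was -0.44 without R9 replicate 1 and -1.90 without R9 replicate 3. Msx1, a homeobox gene of the roof plate and a target of BMP, was at 6210.3, 10467 and 2781 in R9 and 1328, 1523 and 1859 in M9, a log2 difference of -1.86 (SE 0.87, adjusted p = 0.072), with an adjusted p of 0.045 without R9 replicate 3. The genes that rose were Isl1, a LIM-homeobox factor of dI3 neurons and of heart progenitors, and Lhx2. Isl1 had a log2 difference of 2.47 (SE 0.77, adjusted p = 0.0081). Lhx2 had one of 1.55 (SE 0.53, adjusted p = 0.016) and was not called without R9 replicate 3 (adjusted p = 0.090) or M9 replicate 2 (0.087). With the 6 libraries fitted alone, 14 of the 20 fell and 2 rose.

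Ventral spinal cord genes gave 3 rises (18.8%) and 5 falls (31.2%) of 16, beside 27.5% and 23.5% of all genes. Without R9 replicate 3 they gave 5 calls in all. Gata2, a GATA factor of V2b interneurons and of several other tissues, was at 86.6, 107 and 72.2 in R9 and 424, 585 and 467 in M9, a log2 difference of 2.47 (SE 0.63, adjusted p = 0.0017). Sim1, of V3 interneurons, was at 44.99, 117 and 54.99 in R9 and 14.5, 9.32 and 7.12 in M9, a log2 difference of -2.63 (SE 0.68, adjusted p = 0.0019).

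Genes of mature neurons fell or were not called. Of 21 genes for the neuronal cytoskeleton and neuronal RNA-binding proteins 10 fell and 0 rose, with a median of -1.24. Elavl2, a neuronal RNA-binding protein, was at 1387, 1277 and 1296 in R9 and 625, 367 and 604 in M9, a log2 difference of -1.35 (SE 0.21, adjusted p = 3.9e-06). Ina, the filament internexin, was at 2837, 1963 and 2059 in R9 and 814, 481 and 821 in M9, a log2 difference of -1.72 (SE 0.36, adjusted p = 2.1e-04). The groups were apart in both, and M9 replicate 2 was the lowest library. Tubb3, the neuronal beta-tubulin, was at 2805, 1548 and 1344 in R9 and 432, 292 and 577 in M9, also apart, with a log2 difference of -2.11 (SE 0.85, adjusted p = 0.038). It was not called without R9 replicate 1 (-1.79, adjusted p = 0.13), R9 replicate 2 (0.059), M9 replicate 1 (0.069) or M9 replicate 2 (0.12). Map2 and Elavl3, a dendritic microtubule protein and a further neuronal RNA-binding protein, had log2 differences of -1.55 (SE 0.59, adjusted p = 0.028) and -2.36 (SE 0.82, adjusted p = 0.017). Map2 was not called without any of R9 replicate 1 (adjusted p = 0.12), R9 replicate 2 (0.073), M9 replicate 1 (0.078) and M9 replicate 2 (0.073), nor Elavl3 without R9 replicate 1 (0.075) or M9 replicate 2 (0.062). Over the list, 6 genes were called without R9 replicate 1 and 5 without M9 replicate 2, all lower in M9.

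Synaptic vesicle genes fell in 7 of 21 cases (33.3%) and rose in 2 (9.52%), beside 23.5% and 27.5% of all genes. Their median was -0.88. Rims2, a scaffold of the release site, was at 1223, 1116 and 1144 in R9 and 497, 458 and 438 in M9, a log2 difference of -1.32 (SE 0.11, adjusted p = 2.9e-11). Syn1, synapsin, was at 501, 398 and 458 in R9 and 232, 132 and 169 in M9, a log2 difference of -1.37 (SE 0.23, adjusted p = 9.1e-06). Stx1a, a syntaxin, moved the other way, from 243, 234 and 204 in R9 to 389, 484 and 368 in M9, a log2 difference of 0.86 (SE 0.20, adjusted p = 5.5e-04). The libraries of each gene were close within groups and apart between them. With the 6 libraries fitted alone, 11 of the 21 fell and 3 rose. Voltage-gated channel genes fell in 8 of 18 cases and rose in 3. Scn8a, a sodium channel, was at 626, 551 and 562 in R9 and 266, 203 and 230.4 in M9, a log2 difference of -1.32 (SE 0.15, adjusted p = 1.5e-08). Cacna2d2, a calcium channel subunit, was at 1359.9, 1157 and 1077 in R9 and 411, 382 and 393 in M9, a log2 difference of -1.59 (SE 0.19, adjusted p = 3.7e-08).

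Transmitter genes were counted by type. Of 16 genes of inhibitory transmission 8 fell and 2 rose. Slc32a1, the vesicular transporter of GABA and glycine, was at 345, 268 and 260.4 in R9 and 23.6, 27.6 and 49.9 in M9, a log2 difference of -3.14 (SE 0.51, adjusted p = 8.5e-06). Slc6a5, the glycine transporter of glycinergic neurons, was at 44.8, 26.2 and 25.04 in R9 and 1.91, 0.969 and 1.61 in M9, a log2 difference of -3.69 (SE 0.54, adjusted p = 1.3e-06). Gad1, a GABA-synthesizing enzyme, was at 92.9, 60.2 and 115 in R9 and 12.5, 4.68 and 12.4 in M9, a log2 difference of -3.11 (SE 0.56, adjusted p = 3.0e-05). All 3 were markedly lower in every M9 library. Gabra3, a GABA receptor subunit, was higher: 45.3, 65.7 and 27.1 in R9 and 301, 305 and 418 in M9, a log2 difference of 2.94 (SE 0.39, adjusted p = 2.5e-07). Of 12 genes of excitatory transmission 3 rose (25%) and 2 fell (16.7%), beside 27.5% and 23.5% of all genes. The median was 0.21. Gria3, an AMPA receptor subunit, was at 200.3, 196 and 124 in R9 and 675, 929.6 and 718 in M9, a log2 difference of 2.17 (SE 0.23, adjusted p = 4.9e-09), while Grik3, a kainate receptor subunit, was at 4485, 3444 and 4179 in R9 and 1258, 1122 and 1121 in M9, a log2 difference of -1.78 (SE 0.17, adjusted p = 5.8e-10). Slc17a6, the vesicular glutamate transporter of spinal neurons, was at 41.6, 25.04 and 10.9 in R9 and 16.7, 10.7 and 37.4 in M9, overlapping, with a log2 difference of -0.24 (SE 1.10, adjusted p = 0.87). Whether the 2 lists differed from each other was not tested.

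Of 28 axon guidance genes 7 were higher and 7 lower, 25% each way, beside 27.5% and 23.5% of all genes tested. Unc5b, a netrin receptor that endothelium also makes, was at 1057, 1088 and 1041 in R9 and 7129, 8379.5 and 6211 in M9, a log2 difference of 2.76 (SE 0.39, adjusted p = 8.5e-07). Ntn1, the netrin ligand, was at 3953, 3508 and 6014 in R9 and 1074, 874 and 774 in M9, a log2 difference of -2.28 (SE 0.32, adjusted p = 6.7e-07). Of 16 glial genes 5 were higher (31.2%) and 6 lower (37.5%), beside the same shares of all genes. In all 7 were called without R9 replicate 2 or without M9 replicate 2. Those that rose included Pdgfra and Sox10, which are also on the mesenchymal and crest lists. Aldh1l1, an astrocyte enzyme, fell by 1.31 on the log2 scale (adjusted p = 7.5e-04), and Apoe by 1.16 (adjusted p = 0.0013).

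**Figure D3:**
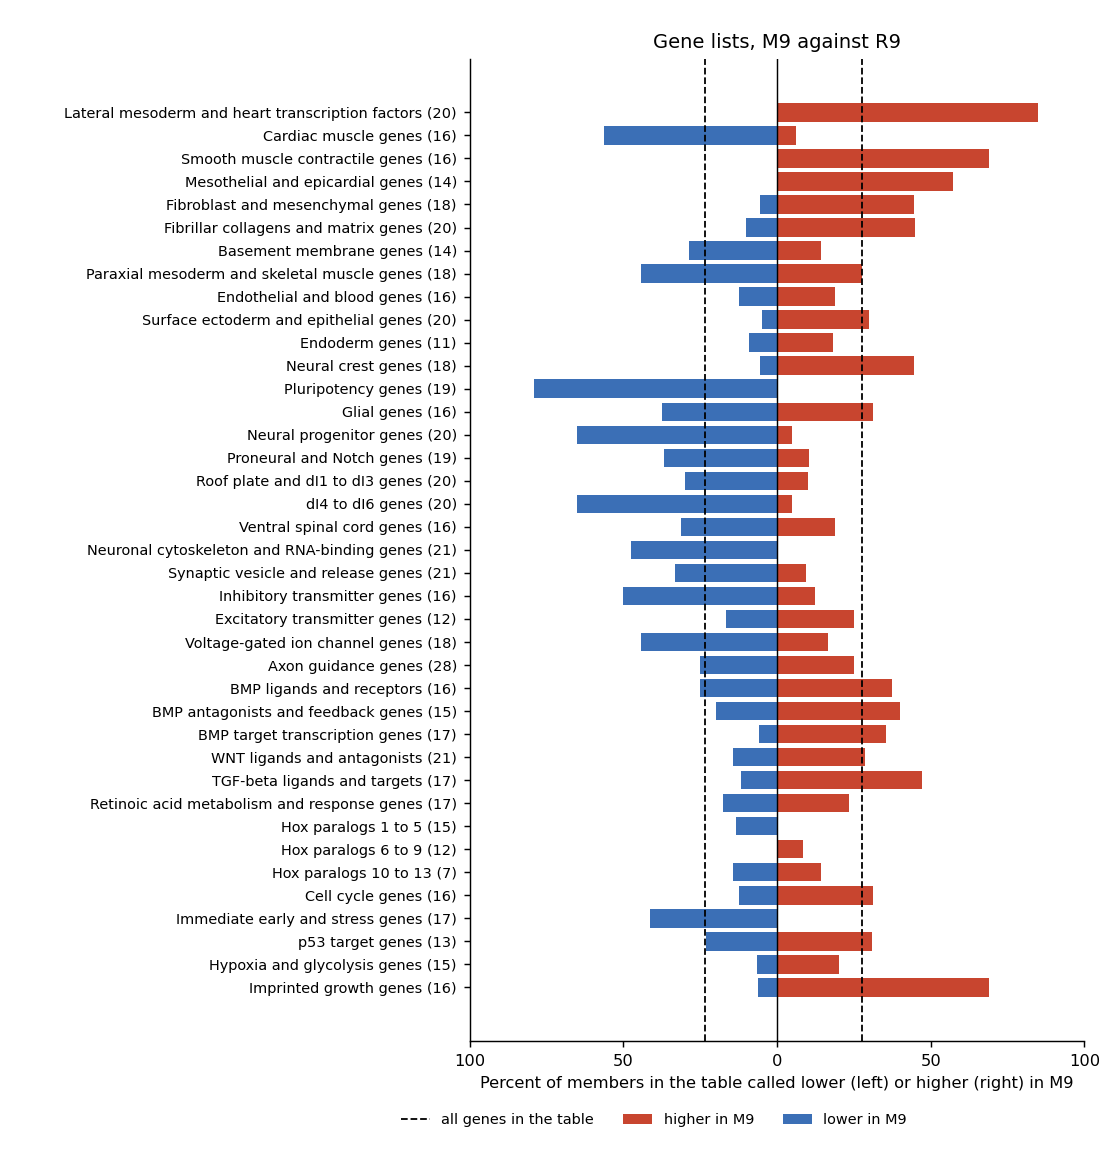
Percent of the members of each gene list in the table that were called lower (left) or higher (right) in M9 than in R9, with dashed lines at the shares over all 11220 genes, 23.5% lower and 27.5% higher. Lateral mesoderm factors (17 of 20 higher), pluripotency genes (15 of 19 lower) and neural progenitor genes (13 of 20 lower) lie far past the lines.

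MicroRNA genes fell in a share near that of all genes, and some known from neural cells were among those that fell. Of 23 microRNA genes listed, 3 were higher in M9 and 6 lower, beside 27.5% and 23.5% of all genes. Their median was 0.19. These are levels of the precursor genes from an mRNA library, not of the mature strands, and are mostly low. The mature 5′ strands of the 3 families named below are shown, with the seed (bases 2 to 8) in capitals, from RefSeq. They were chosen after their values were seen.

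miR-9-5p: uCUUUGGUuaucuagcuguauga
miR-219a-5p: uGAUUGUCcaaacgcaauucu
miR-135a-5p: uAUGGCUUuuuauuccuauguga

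Mir9-2, which makes the neural progenitor microRNA miR-9, was at 15.6, 11.6 and 8.12 in R9 and 0.863, 0.613 and 4.83 in M9, a log2 difference of -2.25 (SE 0.55, adjusted p = 0.001). Mir219a-2, a source of miR-219a, known from oligodendrocytes, was at 19.02, 23.8 and 11.9 in R9 and 3.11, 1.93 and 3.26 in M9, a log2 difference of -2.32 (SE 0.49, adjusted p = 2.1e-04). Mir219a-1, on another chromosome, makes the same mature strand and seed, and was at 13.9, 11.3 and 13.8 in R9 and 6.104, 3.23 and 1.9996 in M9, with a log2 difference of -1.64 (SE 0.51, adjusted p = 0.0076). Mir135a-2 was at 15.2, 17.2 and 7.68 in R9 and 2.23, 1.93 and 2.95 in M9, a log2 difference of -2.03 (SE 0.53, adjusted p = 0.002). Every M9 library lay below every R9 library in these 4 genes. Mir3064 was the clearest rise, from 66.3, 55.3 and 63.5 in R9 to 163, 235 and 152 in M9, a log2 difference of 1.53 (SE 0.26, adjusted p = 1.7e-05).

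Pluripotency genes were higher in R9 than in M9 on day 9. Of 19 listed, 15 were lower in M9 and 0 higher, with a median of -2.21. Pou5f1, the OCT4 factor, was at 1929, 1774 and 4146 in R9 and 405, 236 and 474 in M9, a log2 difference of -2.76 (SE 0.71, adjusted p = 0.0018). Its gene (ENSMUSG00000024406) lies at chromosome 17, 35506018 to 35510772, on mm10. Nanog, its homeobox partner, was at 1084, 699.8 and 1181 in R9 and 123, 64.1 and 209.6 in M9, a log2 difference of -3.01 (SE 0.74, adjusted p = 0.0012). Esrrb, an orphan nuclear receptor of naive cells, was at 1242, 785 and 1501 in R9 and 124, 57.6 and 176 in M9, a log2 difference of -3.38 (SE 0.58, adjusted p = 1.5e-05). R9 replicate 3 was the highest library for all 3 genes and M9 replicate 2 the lowest, and the groups did not overlap. Dppa5a, Zfp42 and Prdm14 fell by 3.06, 2.89 and 2.64 on the log2 scale (adjusted p = 6.1e-05, 7.4e-04 and 4.7e-04). Klf4 and Lin28a, named after their values were seen, were not called. Lin28a, which neural progenitors also make, was at 3492, 5841 and 9238 in R9 and 3986, 4652 and 3501 in M9, with a log2 difference of -0.51 (SE 0.68, adjusted p = 0.55).

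The BMP pathway itself was examined from ligand to target. Of 16 BMP ligands, receptors and SMADs 6 rose (37.5%) and 4 fell (25%), with a median of 0.34. Over all genes the shares were 27.5% and 23.5%. Bmp5 was at 30.4, 41.3 and 22.1 in R9 and 149, 257 and 165 in M9, a log2 difference of 2.57 (SE 0.56, adjusted p = 3.3e-04). The receptors Acvr1 and Bmpr1a and the signal-carrying Smad5 rose by 1.03, 0.59 and 0.76 on the log2 scale (adjusted p = 1.6e-05, 4.4e-05 and 4.2e-06). Bmp4, whose protein had been added earlier in the course and which was named after its values were seen, was at 364, 245 and 232 in R9 and 678, 901 and 939 in M9, a log2 difference of 1.59 (SE 0.59, adjusted p = 0.024). It was not called without R9 replicate 2 (adjusted p = 0.063), R9 replicate 3 (0.071), M9 replicate 2 (0.065) or M9 replicate 3 (0.063).

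Among 15 antagonists and feedback genes 6 rose (40%) and 3 fell (20%), beside 27.5% and 23.5% of all genes. Bambi, a pseudoreceptor that BMP induces and that dampens its signal, was at 370.03, 464 and 257 in R9 and 1546, 2496 and 2004 in M9, a log2 difference of 2.48 (SE 0.46, adjusted p = 4.5e-05). Twsg1, twisted gastrulation, was at 2352, 2382 and 1913 in R9 and 4491, 6072 and 5126 in M9, a log2 difference of 1.23 (SE 0.14, adjusted p = 1.5e-08). Both were higher in all M9 libraries, and Fstl1, a secreted follistatin relative, rose by 1.41 (adjusted p = 5.0e-04). Sost, sclerostin, was at 113, 189 and 80.1 in R9 and 17.6, 23.97 and 10.6 in M9, a log2 difference of -2.78 (SE 0.74, adjusted p = 0.0024).

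Of 17 transcription factors known as BMP targets 6 rose (35.3%) and 1 fell (5.88%), beside 27.5% and 23.5% of all genes. The median was 0.72. The rises were led by the distal-less genes: Dlx5 was at 19.1, 12.04 and 8.405 in R9 and 209, 375 and 154 in M9, a log2 difference of 4.09 (SE 0.53, adjusted p = 1.8e-07). Dlx3 was at 150.1, 133 and 161 in R9 and 516, 651 and 431 in M9, a log2 difference of 1.83 (SE 0.43, adjusted p = 6.8e-04). The Id genes, which answer BMP within hours, were chosen as examples after their values were seen and overlapped between the groups. Id1 was at 1885, 2257 and 1403 in R9 and 1763, 2329 and 2305 in M9, with a log2 difference of 0.22 (SE 0.38, adjusted p = 0.64), and Id3 had a log2 difference of 0.17 (SE 0.43, adjusted p = 0.76). The 1 gene that fell was Msx3, a dorsal neural tube homeobox gene, from 843, 698 and 319 in R9 to 63.98, 74.1 and 69.2 in M9. Its log2 difference was -3.04 (SE 1.17, adjusted p = 0.03), and leaving out R9 replicate 1, R9 replicate 2 or any M9 replicate gave adjusted p between 0.060 and 0.088. With the 6 libraries fitted alone, 8 of the 17 rose and 3 fell.

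Genes of other signals moved in part. Of 17 TGF-beta ligands, receptors and targets 8 rose and 2 fell. Tgfbr2, the ligand-binding receptor, was at 290.4, 228 and 165 in R9 and 842, 1273 and 1136 in M9, a log2 difference of 2.26 (SE 0.42, adjusted p = 4.4e-05). Tgfbi, a secreted protein that TGF-beta induces, was at 389, 359.9 and 165 in R9 and 1639, 2899 and 2661 in M9, a log2 difference of 3.03 (SE 0.57, adjusted p = 6.0e-05). The gap between groups was wide for both. Of 21 WNT genes 6 rose (28.6%) and 3 fell (14.3%), beside 27.5% and 23.5% of all genes. Wnt2, a ligand of visceral mesoderm, was at 8.87, 13.98 and 5.74 in R9 and 59.5, 85.4 and 83.7 in M9. Its log2 difference was 2.93 (SE 0.56, adjusted p = 7.0e-05), while Wnt3a and Wnt7b, given above, fell. Sfrp2, a secreted WNT antagonist, rose by 1.23 (adjusted p = 8.6e-06).

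RA genes, 17 in all, rose in 4 cases (23.5%) and fell in 3 (17.6%), beside 27.5% and 23.5% of all genes. Aldh1a1, an RA-synthesizing dehydrogenase, was at 6.96, 5.79 and 3.41 in R9 and 46.98, 141 and 152 in M9, a log2 difference of 4.03 (SE 0.68, adjusted p = 1.4e-05). Rxra, a nuclear receptor partner, was at 1655, 1557 and 1473 in R9 and 2549.7, 2985 and 2692 in M9, a log2 difference of 0.81 (SE 0.09, adjusted p = 1.3e-08).

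Hox genes, which set position along the body axis, gave few calls. Of 15 genes of paralog groups 1 to 5, 2 fell (13.3%) and 0 rose. Of 12 genes of groups 6 to 9, 1 rose (8.33%) and 0 fell, and of 7 of groups 10 to 13, 1 rose and 1 fell (14.3% each). Over all genes 27.5% were higher and 23.5% lower. The 7 genes of groups 10 to 13 were low, with summed levels of 113 to 128 in R9 and 160 to 280 in M9. Hoxd1 was at 647, 878 and 365 in R9 and 62.7, 60.9 and 95.6 in M9, a log2 difference of -3.03 (SE 0.58, adjusted p = 7.5e-05). Hoxd9 was at 51.6, 61.4 and 34.9 in R9 and 166, 160.3 and 250.3 in M9, a log2 difference of 1.95 (SE 0.40, adjusted p = 1.6e-04), and Hoxb13 rose by 1.65 (adjusted p = 5.9e-06). The counts moved with single libraries: Hoxd3 and Hoxd13 lost their calls in fits without 1 library, Hoxd3 without R9 replicate 1 (adjusted p = 0.15), R9 replicate 2 (0.15), M9 replicate 1 (0.11), M9 replicate 2 (0.073) or M9 replicate 3 (0.089), and Hoxd13 without R9 replicate 3 (0.089), M9 replicate 2 (0.13) or M9 replicate 3 (0.059). Groups 6 to 9 gave 1 rise and 3 falls without R9 replicate 3. Groups 10 to 13 gave 3 rises and 1 fall without R9 replicate 1, and 1 call without R9 replicate 3, M9 replicate 2 or M9 replicate 3.

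Immediate early genes are those that cells switch on within minutes of a stimulus. They were listed together with stress genes. Of the 17 on this list 7 fell, 0 rose and 10 were not called. In 3 all M9 libraries lay above all R9 libraries, and the median was -0.35. Fos was at 2531, 1496 and 895 in R9 and 39.2, 54.1 and 74.9 in M9, a log2 difference of -4.77 (SE 0.65, adjusted p = 4.3e-07). Egr1 was at 5477, 2508 and 2673 in R9 and 297, 339 and 675 in M9, a log2 difference of -3.02 (SE 0.72, adjusted p = 8.0e-04). Ier2 was at 3784, 3789 and 4541 in R9 and 1678, 1531 and 1760.2 in M9, a log2 difference of -1.28 (SE 0.14, adjusted p = 1.5e-08). R9 replicate 1 was the highest library for Fos and Egr1 and R9 replicate 3 for Ier2, and the groups were apart for all 3.

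Cell cycle genes rose in 5 of 16 cases (31.2%) and fell in 2 (12.5%), beside 27.5% and 23.5% of all genes. These changes were all under 2-fold except that of Ccnd1. Ccnd1, cyclin D1, was at 9179, 9799 and 8886 in R9 and 4572, 3869 and 4477 in M9, a log2 difference of -1.11 (SE 0.16, adjusted p = 1.8e-06). Ccne2, a cyclin E, was at 439, 543 and 458 in R9 and 861, 1014 and 761 in M9, a log2 difference of 0.87 (SE 0.15, adjusted p = 2.3e-05). Mcm4, a subunit of the replication helicase, rose by 0.68 (adjusted p = 0.0017). Of 13 genes of the p53 response 4 were higher and 3 lower, 30.8% and 23.1%, beside the 27.5% and 23.5% of all genes tested. Ccng1, a cyclin that p53 induces, was at 11652, 11965 and 11415 in R9 and 17698, 21171 and 17459 in M9, with a log2 difference of 0.68 (SE 0.10, adjusted p = 1.0e-06). Hypoxia and glycolysis genes gave 3 rises (20%) and 1 fall (6.67%) of 15, both under the 27.5% and 23.5% of all genes. Of the list's called genes only Ndrg1, a stress-response gene, kept its call in every fit without 1 library. Its log2 difference was 0.99 (SE 0.29, adjusted p = 0.005). The hypoxia list gave 1 call without R9 replicate 1 or M9 replicate 1 and 2 without M9 replicate 3.

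Imprinted growth genes rose in 11 of 16 cases and fell in 1, with a median of 1.18. Igf2r, the receptor that clears IGF2, was at 3929.8, 3444 and 2258 in R9 and 10839, 13596 and 10623 in M9, a log2 difference of 1.89 (SE 0.22, adjusted p = 2.5e-08). Rian, a noncoding RNA of the Dlk1 and Meg3 cluster, was at 2397, 2176 and 1855 in R9 and 4891, 6009 and 5886 in M9, a log2 difference of 1.39 (SE 0.12, adjusted p = 1.6e-10). Every M9 library lay above every R9 library in both. Igf2, the fetal growth factor, and its neighbour H19, a noncoding RNA, were named after their values were seen. Igf2 was at 30138, 36554 and 10116 in R9 and 85836, 182739 and 150660.0 in M9, a log2 difference of 2.58 (SE 0.62, adjusted p = 9.6e-04). H19 was at 3968, 4667 and 1771 in R9 and 14960.4, 33943 and 26298 in M9, a log2 difference of 2.89 (SE 0.61, adjusted p = 2.3e-04). For these 2 genes R9 replicate 3 was the lowest of the 6 libraries and M9 replicate 2 the highest. The gene that fell was Snrpn, at 8.48, 5.51 and 8.51 in R9 and 3.67, 2.24 and 3.35 in M9. Its log2 difference of -1.05 (SE 0.40, adjusted p = 0.027) was not called without R9 replicate 1 (adjusted p = 0.079), R9 replicate 3 (0.080) or M9 replicate 2 (0.11).

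Day 7 was used to see which differences were already there. M7 and R7 had 4882 genes called (43.5%), 2571 higher in M7 (22.9%) and 2311 lower (20.6%), of which 1371 (12.2%) and 1077 (9.60%) differed by at least 2-fold. These groups share no library with those of day 9. A test of the day 9 difference less the day 7 difference called 1334 genes (11.9%), 729 of them higher (6.50%) and 605 lower (5.39%). With a difference of at least 2-fold the same test gave 177 higher (1.58%) and 414 lower (3.69%). The lateral mesoderm factors gave 17 rises of 20 on day 7 too, with a median of 2.82, and 0 of the 20 differed between the days. Hand2 was at 51.8, 71.97 and 26.5 in R7 and 1033, 3094 and 3272 in M7, and its log2 difference of day 9 less that of day 7 was 0.66 (SE 1.13, adjusted p = 0.75). Sox2 was at 7549.9, 6942 and 8431 in R7 and 923, 752 and 1352 in M7, with a difference between the days of -0.04 (SE 0.43, adjusted p = 0.97). On day 7 the log2 differences were 5.53 for Hand2 and -2.96 for Sox2.

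Pluripotency genes were lower in M9 than in R9 on day 9 and not on day 7. On day 7 the list gave 1 rise and 0 falls, with a median of 0.80, and 12 of the 19 differed between the days, all 12 lower on day 9. Pou5f1 was at 169, 558 and 513 in R7 and 1965, 331 and 529 in M7, so that the groups overlapped, with M7 replicate 1 the highest. All 3 R9 libraries lay above all 3 R7 libraries, while the M9 libraries overlapped those of M7. On day 5 its level was 202, 116 and 64.5 in the RA alone group and 863, 651 and 346 in the combined group, so that it was then higher in every combined library, as the plot of the course shows. Its difference of day 9 less that of day 7 was -3.70 (SE 1.01, adjusted p = 0.015), and -2.96 (adjusted p = 0.061) without M7 replicate 1. It was also not called without R9 replicate 3 (adjusted p = 0.051), M9 replicate 2 (0.051) or R7 replicate 1 (0.055). Esrrb, with a difference between the days of -3.50 (SE 0.81, adjusted p = 0.0058), and Dppa5a, with one of -3.69 (SE 0.82, adjusted p = 0.0042), were called in each of the 12 fits without 1 library.

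Fos was also apart on day 9 and not on day 7. It was at 116, 191 and 43.2 in R7 and 37.6, 62.5 and 61.8 in M7, overlapping and low in both, and its high level on day 9 was in R9 and not in M9. The difference between the days was -3.87 (SE 0.91, adjusted p = 0.0065), and -3.28 without R7 replicate 3. Over the immediate early and stress list 5 of 17 differed between the days, all 5 lower on day 9, beside 5.39% of all genes. Junb, a partner of Fos, had a difference between the days of -2.94 (SE 0.57, adjusted p = 0.0014) and Ier2 one of -1.71 (SE 0.20, adjusted p = 1.2e-05).

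**Figure D4:**
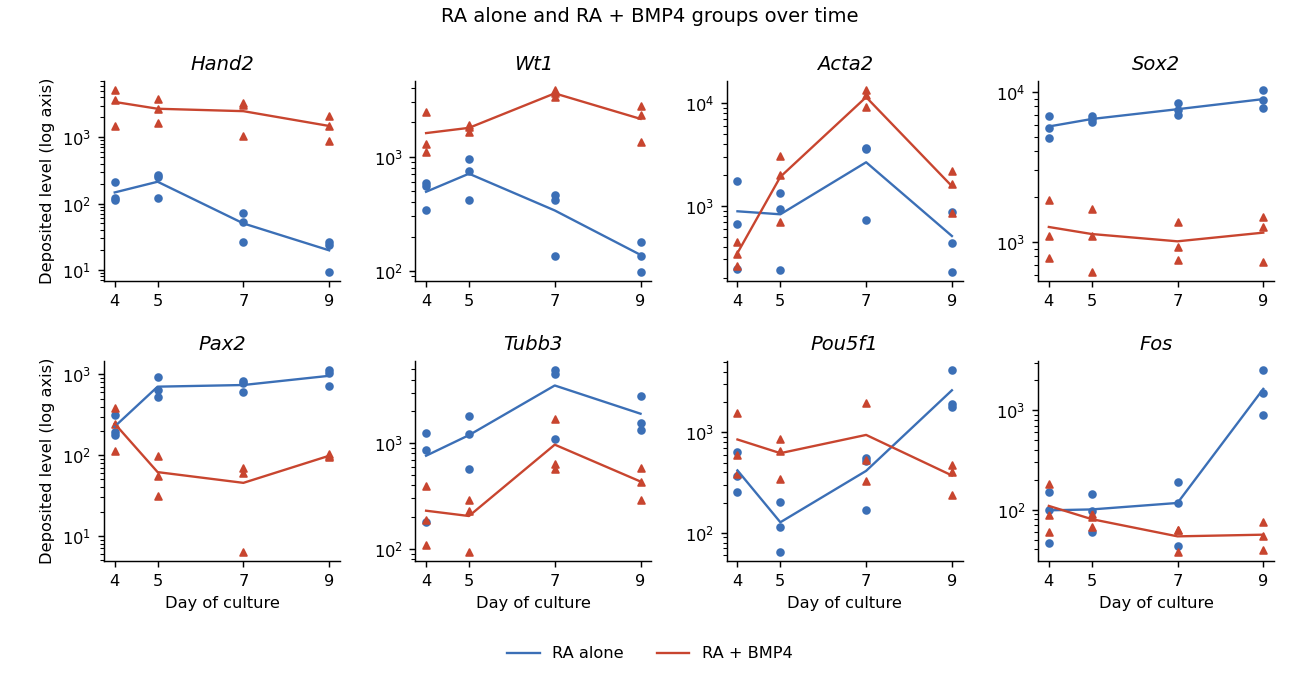
Deposited level (log axis) of Hand2, Wt1, Acta2, Sox2, Pax2, Tubb3, Pou5f1 and Fos on days 4, 5, 7 and 9 in the RA alone and combined groups, with a point for each of 3 libraries and a line through the group means. Hand2 and Sox2 are apart on each day shown, while Pou5f1 and Fos are apart on day 9 and overlap on day 7, and Pou5f1 is higher in the combined group on day 5.

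Blood and endothelial genes were a feature of day 7. The embryonic globin Hba-x was at 418, 1559 and 51.7 in M7 and 6.34, 1.22 and 0.81 in R7, and low in all day 9 libraries. The difference between the days was -6.52 (SE 1.301, adjusted p = 0.0017). It was -7.14 without R7 replicate 1, -5.39 without M7 replicate 2 and -7.83 without M7 replicate 3, and the 3 M7 libraries were far apart. The list of endothelial and blood genes, which holds Hba-x and Hbb-y, gave 13 rises of 16 on day 7 with a median of 2.16. By the test 5 of the 16 had a lower difference on day 9, beside 5.39% of all genes. Pecam1 had a log2 difference of 2.29 on day 7 and -0.79 on day 9, a difference between the days of -3.08 (SE 0.74, adjusted p = 0.0072).

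Other genes had a higher difference on day 9 than on day 7. Krt15 was at 15.9, 17.4 and 5.74 in R7 and 75.2, 72.9 and 48.9 in M7, apart, and its difference between the days was 3.18 (SE 0.82, adjusted p = 0.01). Onecut2, a factor of neuronal differentiation, was at 1071, 1617 and 1000.1 in R7 and 106, 258 and 367 in M7 and overlapped between R9 and M9. Its difference between the days was 2.82 (SE 0.57, adjusted p = 0.0018). Among cell cycle genes 8 of 16 had a higher difference on day 9 and 0 a lower, beside 6.50% and 5.39% of all genes. The list had given 0 rises and 5 falls on day 7. Ccne2 had a difference between the days of 1.10 (SE 0.22, adjusted p = 0.0016) and Ccnd1 one of 0.93 (SE 0.23, adjusted p = 0.0088). The p53 list gave 5 of 13 higher and 0 lower, beside the same shares of all genes, with Ccng1 at 1.08 (SE 0.14, adjusted p = 1.7e-05).

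**Figure D5:**
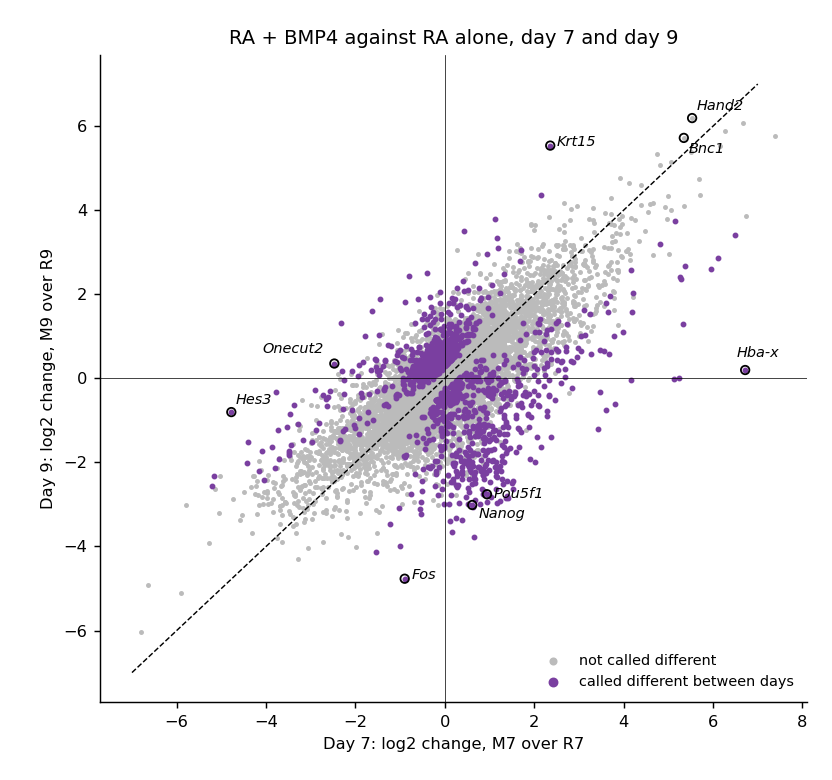
Log2 difference of combined treatment over RA alone on day 7 (horizontal axis, M7 over R7) and day 9 (vertical axis, M9 over R9) for each gene, with the 1334 genes whose differences were called different between the days in purple. Hand2 and Bnc1 lie high on both axes, while Hba-x (6.72 on day 7, 0.20 on day 9) and Nanog (0.61 and -3.01) do not.

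B9, in which BMP4 came a day later and for a shorter time, differs from M9 in both the start and the duration of BMP4, which cannot be told apart. M9 and B9 differed in 5777 genes (51.5%), 3114 higher in M9 (27.8%) and 2663 lower (23.7%), of which 854 (7.61%) and 1366 (12.2%) differed by at least 2-fold. Since both are compared with the same R9 libraries, values are given here only from the direct comparison of M9 with B9. Lateral mesoderm factors were higher in M9 in 15 of 20 cases and lower in 0, with a median of 1.74. Tbx20 was at 17.99, 14.98 and 9.201 in B9, overlapping the R9 range, and differed from M9 by a log2 difference of 5.08 (SE 0.63, adjusted p = 1.7e-07). Gata5 was at 36.5, 23.2 and 12.5 in B9 and differed by 4.67 (SE 0.87, adjusted p = 6.8e-05), and Dlx5, at 25.4, 9.52 and 6.88 in B9, by 4.15 (SE 0.53, adjusted p = 2.9e-07). Every M9 library lay above every B9 library in these genes. Of the mesothelial genes 2 of 14 were higher in M9 and 1 lower, with a median of 0.07. Upk3b was at 343, 206 and 161 in B9, with a log2 difference of M9 over B9 of 0.24 (SE 0.91, adjusted p = 0.84), and Wt1 at 1766, 1094 and 849.9, with a difference of 0.80 (SE 0.45, adjusted p = 0.14). Msln was the lower one: it was at 26.8, 37.8 and 39.04 in B9, a difference of -2.83 (SE 0.73, adjusted p = 0.0021).

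Of 21 cytoskeletal genes of neurons 16 were lower in M9 than in B9 and 0 higher, with a median of -1.78. Tubb3 was at 5293, 5700.3 and 5389 in B9, a log2 difference of M9 over B9 of -3.70 (SE 0.85, adjusted p = 6.7e-04). Of the roof plate and dI1 to dI3 genes 14 of 20 were lower in M9 and 0 higher, with a median of -2.65. Barhl1 was at 831, 345 and 298 in B9, a difference of -4.57 (SE 1.12, adjusted p = 0.0013), and Foxd3, a forkhead factor of neural crest and dorsal interneurons, at 290.3, 489 and 476, a difference of -4.63 (SE 0.84, adjusted p = 5.0e-05). Both were higher in all B9 than in all M9 libraries. The dI4 to dI6 genes were lower in M9 in 9 of 20 cases with a median of -0.89, and Gsx1, at 78.2, 83.9 and 144 in B9, differed by -4.34 (SE 0.75, adjusted p = 2.5e-05). Of 16 ventral spinal cord genes 2 were higher in M9 and 1 lower (median 0.14), and of 12 excitatory transmitter genes 3 and 4 (median -1.06). Of 28 axon guidance genes 6 were higher and 9 lower (median -0.10). Over all genes the shares were 27.8% and 23.7%. Pluripotency genes were lower in M9 than in B9 in 17 of 19 cases, with a median of -2.44, and the markers of pluripotent cells summed to 2221 to 5989 in B9. Nanog was at 721, 1138 and 1604 in B9, a difference of -3.20 (SE 0.74, adjusted p = 7.7e-04). Immediate early and stress genes were lower in M9 in 8 of 17 cases. Fos stood at 1704, 1448 and 1816 in B9, with a difference of -4.90 (SE 0.65, adjusted p = 5.2e-07). The part of the pluripotent cells in the neural differences between M9 and B9 was not tested.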

How the data were processed

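Bulk mRNA libraries were made with a NuGEN kit and read on a NovaSeq, per the labels' protocols. The submitters' processing notes name Picard, edgeR and mm10 and give no role for them, and which aligner, counter and annotation were used is not given in the sources used here. Levels deposited by the authors are a normalized signal per gene and library, with no unit per the file headers. They are not counts (1 value is whole), so depth is unknown. The deposited columns headed fpkm and the deposited rank were treated as a score and left out. Log2 fold changes, p-value and FDR columns deposited by the authors cover 12 comparisons, adjusted over 16014 genes, but not M9 against R9. The table lists the 11220 genes with FDR under 0.1 in any of them. Of 22 symbols turned into dates 19 were restored, and 10766 genes had coordinates.

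A test of counts had been considered, and as the table holds none the values log2(level + 1) were fitted in limma 3.58.1 (R 4.3.3). The fit had 1 coefficient for each of 15 groups over all 45 libraries, and its empirical Bayes step was robust with a trend. A level of 1 in 3 libraries was required, which removed 0 genes. P-values were Benjamini-Hochberg adjusted over 11220 genes in each of 3 tests: M9 against R9, M9 against B9, and the day 9 less the day 7 difference. M7 against R7 was fitted in the same way. Named genes are the 12 largest rises and falls among called genes with a mean of at least 100 in the higher group and no overlap of libraries, up to 4 called members of each list by adjusted p with markers, and 5 each way in the other 2 tests. Genes said to be named after their values were seen fall outside this rule, as do the exceptions and uncalled members named beside a list's count (Nppa, Vim, Cyr61, Ctgf, Lix1, Msx1, Msx3, Isl1, Lhx2, Snrpn and Slc17a6). The groups, the 39 gene lists and the markers were chosen with earlier results of these data known. In simulated levels of 11220 genes for M9 against R9, with 200 changed, the fit called 68% of those changed 2-fold and 88% of those changed 4-fold, and 5 unchanged genes. The changed genes were drawn only from genes of higher level in R9 and were far fewer than those called in the data. These shares therefore do not give the recovery in the data. Alternatives were pseudocounts of 0.1 and 5, filters, quantile normalization, a replicate block, the compared libraries alone, other thresholds and each library left out. Promoters and microRNAs came from RefSeq (GRCm38.p6). Python 3.11.15, pandas 2.3.3 and matplotlib 3.10.9 were used.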

Additional observations from a re-analysis of the deposited data

Results flagged for a closer look

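For 47 of the genes given here by name, the log2 difference of M9 over R9 differed from that of M7 over R7 by the test of the difference itself, at an adjusted p under 0.05. The value in parentheses is the day 9 difference less the day 7 difference, and lower or higher on day 9 is said of that difference, not of the level. Of the 47, 29 were called in each of the 12 fits that leave out 1 library and 18 were not called in at least 1 of them.

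Lower on day 9 were the embryonic globins Hba-x (-6.52), Hbb-y (-5.23) and Hbb-bh1 (-5.15), which were at low levels in all day 9 libraries, the secreted protein gene Nell1 (-4.36) and the ribosomal gene copy Rpl10l (-4.27). Hbb-y gave -4.64, -4.01 and -7.04 without M7 replicates 1, 2 and 3, Hbb-bh1 -4.01 and -6.72 without M7 replicates 2 and 3, Nell1 -5.04 without R7 replicate 2 and -3.32 without R7 replicate 3 (adjusted p = 0.064), and Rpl10l -3.65, -3.61 and -4.95 without R7 replicate 1, M7 replicate 1 and M7 replicate 2. Pluripotency genes were lower on day 9: Pou5f1 (-3.70), Dppa5a (-3.69), Nanog (-3.63), Zfp42 (-3.57), Esrrb (-3.50) and Prdm14 (-3.47). Nanog was not called without R9 replicate 3, M9 replicate 2, R7 replicate 1 or M7 replicate 1 (adjusted p from 0.054 to 0.078), and Zfp42 without M9 replicate 2 or M7 replicate 1 (0.058 each, and a value of -2.85 without the latter). So were the immediate early genes Fos (-3.87), Junb (-2.94) and Ier2 (-1.71), the endothelial genes Pecam1 (-3.08) and Tek (-1.94) and the TGF-beta ligand Tgfb1 (-1.81). Neural and glial genes lower on day 9 were Hopx (-2.98), Cnpy1 (-2.60), Gad1 (-2.56), Apoe (-2.06), Cacna2d2 (-1.75) and Aldh1l1 (-1.35). The position genes Hoxd13 (-2.48) and Hoxd9 (-1.74) and the keratin Krt8 (-0.94) were lower too, and so was the atrial peptide gene Nppa (-2.63). Tgfb1, Hoxd9 and Nppa were above RA alone on both days, with log2 differences of 1.80, 1.95 and 1.57 on day 9 and 3.61, 3.69 and 4.19 on day 7. Of these Gad1 was not called in 6 of the 12 fits (adjusted p up to 0.11), Aldh1l1 in 9 (up to 0.16), Hoxd13 in 2 (up to 0.058), Hoxd9 in 8 (up to 0.12), Krt8 in 4 (up to 0.11) and Nppa in 9 (up to 0.13, with a value of -1.96 without R7 replicate 3).

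Higher on day 9 were the BMP pathway genes Smad5 (0.49), Bmpr1a (0.50) and Twsg1 (0.99), the cell cycle genes Ccnd1 (0.93) and Ccne2 (1.10), the p53 response genes Eda2r (0.70) and Ccng1 (1.08) and the imprinted gene Grb10 (0.82). Also higher were Rdh10 (1.17), a retinol dehydrogenase, Sema3e (1.40), a semaphorin, Sfrp2 (1.69), a WNT antagonist, and the keratin Krt15 (3.18). Neuronal and progenitor genes higher on day 9 were Rims2 (0.59), Gria4 (1.43), Onecut2 (2.82), Drd2 (2.84), Calb1 (3.62) and Hes3 (3.97). The microRNA genes Mir3064 (1.62) and Mir219a-1 (2.22) were higher too. Ccnd1 and Mir219a-1 were below RA alone on both days, with log2 differences of -1.11 and -1.64 on day 9 and -2.04 and -3.86 on day 7. Rims2 and Drd2 were lower in the combined treatment on both days and Hes3 on day 7, while Hes3 was not called on day 9, with log2 differences of -1.32, -2.33 and -0.80 on day 9 and -1.91, -5.17 and -4.78 on day 7. Smad5 was not called in 9 of the 12 fits (adjusted p up to 0.15), Bmpr1a in 5 (up to 0.11), Grb10 in 2 (up to 0.073), Rdh10 in 5 (up to 0.12) and Sema3e in 1 (0.059, without M7 replicate 3). Calb1 was not called in 9 (up to 0.11), with values from 3.06 to 4.44, and Hes3 in 6 (up to 0.087), with values from 3.28 to 4.48. Mir219a-1 was not called in 9 (up to 0.13), with a value of 2.82 without M7 replicate 2. No cause was tested for any of these differences.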

How the results depend on the processing

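The counts of called genes kept within 1.5 times of those given above under pseudocounts of 0.1 and 5, filters on low levels, quantile normalization, empirical Bayes without the robust step, adjustment over the 16014 genes the authors tested, and fits of the compared libraries alone, for the comparisons of M9 with R9 and with B9 and for the difference between days. Counts fell further with a required 2-fold difference: 2567 for M9 against R9 (1206 higher, 1361 lower), 2220 for M9 against B9 (854 and 1366) and 591 between the days (177 and 414). At an adjusted p under 0.01 the count between the days was 484. Leaving out each library gave 4527 to 5272 genes for M9 against R9, 4395 to 5400 for M9 against B9, and 730 (without M9 replicate 2) to 1294 between the days, with 849 without R9 replicate 3. With the replicate number as a block the counts were 5662, 5711 and 1282. With that block, of the 205 genes named by rule only Hoxd3 lost its call for M9 against R9. Adjustment over 16014 genes took the call from 6 of the 205. In fits without 1 library from 4 (R9 replicate 3) to 11 (M9 replicate 1) lost it. Same-numbered libraries of R9 and M9 deviated from their group means with correlations of -0.36, 0.24 and -0.21, so the numbers were not taken to pair the libraries. Quantile normalization gave 2783 higher and 2822 lower genes for M9 against R9, with a median log2 difference over all genes of -0.02. The authors' deposited test of M9 against B9, which was chosen as an alternative after seeing the data, had 4939 genes past the threshold (2404 higher in M9, 2535 lower). The planned authors' test of M9 against R9 was not run, because the authors' deposited table holds no such comparison. For the 205 genes named by rule, a called difference of M9 against R9 kept its sign in every setting that kept the gene. Other named genes, and single genes in the other tests, were followed only in fits without 1 library. Depth is unknown, so levels under about 10 carry an error that the files do not give.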
